A study of Mus musculus with 9 samples.

Results

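The subunits of the respiratory chain and of ATP synthase were followed in the livers of NSG mice, an immunodeficient strain that accepts human cells and their products. Members were taken by a rule on gene names that uses no measured value. The rule was set with earlier results of these data known, values of mt-Co2 among them. These were the names of protein-coding mitochondrial genes (mt-Nd, mt-Co, mt-Atp and mt-Cytb) and the nuclear names Nduf, Sdh, Uqcr, Cox4 to Cox8 and Atp5, with pseudogene names holding -ps left out. The rule found 104 of 55414 features with Ensembl identifiers, and 99 of the 104 have an annotated coding transcript (GENCODE M21). Of these, 13 are encoded in mitochondrial DNA and 91 in the nucleus. The mitochondrial members are 7 genes of complex I, 1 of complex III, 3 of complex IV and 2 of complex V, and the nuclear ones 42 genes of complex I, 4 of complex II, 8 of complex III, 19 of complex IV and 18 of complex V. The nuclear symbol Atp5o stands on 2 features and is counted as 2 members.

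Liver RNA was sequenced from 3 groups of 3 samples, all labelled wild type in genotype and all injected into the tail vein over 5 weeks. The MDA-MB-231 EV group received extracellular vesicles (EVs, membrane particles that cells release) from the human breast cancer line MDA-MB-231, of the triple-negative kind. The MCF-10A EV group received EVs from MCF-10A, a human line of breast epithelium that forms no tumours, and the PBS group received phosphate-buffered saline alone. The sources used here give no age, sex, EV dose or number of injections. The labels tell samples apart by number without naming the mice, so p-values speak only of the spread among these samples. The series title concerns host cholesterol balance and tumour spread, so the respiratory chain is a pathway the series measured without naming it as its question.

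Respiratory chain complexes sit in the inner mitochondrial membrane. Complex I takes electrons from NADH and complex II takes them from succinate, complex III passes them from ubiquinone to cytochrome c, complex IV hands them to oxygen, and complex V (ATP synthase) uses the proton gradient that complexes I, III and IV build. Hepatocytes are rich in mitochondria and draw on this gradient for glucose and urea synthesis. Complex II is encoded wholly in the nucleus; the other complexes mix subunits from both genomes, with the mitochondrial genes supplying the membrane core. Mitochondrial genes are transcribed as long RNAs of many genes that are then cut apart, mt-Nd6 from the light strand and the other protein genes from the heavy strand, whereas each nuclear subunit gene has its own promoter.

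Values are TPM, a unit of transcript abundance that is already scaled for transcript length and library total, so that levels can be compared between genes; they keep no read depth, and no counting interval can be given. Between 17403 and 20070 Ensembl features were above 0 TPM in a library. Tests were made with limma on log2(TPM + 1) over the 12860 features with a mean of at least 1 TPM, adjusted over all of them by the Benjamini-Hochberg method and called at an adjusted p under 0.05. Hepatocyte identity held in every library, with Alb, the albumin gene, at between 13114 and 65814 TPM. PBS 1 stood apart, with 24.1% of its TPM in the 13 mitochondrial genes and 1.43% in the nuclear subunits, and medians and ratios whose sign turned without it are given both ways. TPM of the MCF-10A EV libraries added up to 979351, 946777 and 934986 TPM where the other 6 reached the full TPM total. In these 3 libraries the 6059 loci assembled from the reads, which are no members, and mt-Co2 were also listed at 0. Whether their values were computed in another way than those of the other 6 was not tested, and in every comparison with MCF-10A EV such a difference cannot be told apart from the treatment. In whole-liver RNA, fewer cells of a type and less RNA per cell cannot be told apart.

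Part of the mitochondrial genome has a near-identical copy in the nuclear genome, and this bears on how reads of the mitochondrial members were divided. A search of annotated mouse transcripts (GENCODE M21, build GRCm38) for stretches of at least 200 bases with at least 99% identity found 7 unprocessed pseudogenes side by side on the minus strand of chromosome 1, between bases 24611535 and 24616197, that match mt-Co1, mt-Co2, mt-Atp6, mt-Co3, mt-Nd3, mt-Nd4l and mt-Nd4. Over their aligned length 5 of the 7 are 100% identical to the mitochondrial gene, so that reads from either place cannot be told apart by sequence. The copy of mt-Nd3 differs from the gene at T3C and the 3′ fragment that copies mt-Co1 differs at A1066T, with positions counted from base 1 of the mitochondrial gene. The copies of mt-Co1 and mt-Nd4 align to only 483 of 1545 and 876 of 1378 bases of these genes. Opening bases of mt-Co2 and its copy are shown as an example of identity. The stretches around both substitutions are shown because these are the only differences within the aligned lengths. Capitals mark the substituted base, and all are in GRCm38. The mitochondrial genes are on the plus strand and the copies on the minus strand.
mt-Co2, chrM:7013-7072: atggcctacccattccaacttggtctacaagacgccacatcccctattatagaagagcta
Gm28661, chr1:24615506-24615565: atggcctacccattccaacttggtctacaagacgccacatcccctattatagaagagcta
mt-Nd3, chrM:9459-9518: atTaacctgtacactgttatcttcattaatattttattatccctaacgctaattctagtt
Gm28438, chr1:24613060-24613119: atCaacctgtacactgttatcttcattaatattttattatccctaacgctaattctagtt
mt-Co1, chrM:6390-6449: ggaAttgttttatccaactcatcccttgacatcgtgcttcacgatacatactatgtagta
Gm29216, chr1:24616129-24616188: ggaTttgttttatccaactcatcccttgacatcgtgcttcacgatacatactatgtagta
The deposited table lists 6 of these 7 copies above 0 TPM, and 4 of them held more than the mitochondrial gene did. Gm28661 carried 98.9% of the TPM listed for mt-Co2 and itself together. The same share was 89.2% for Gm28437 and mt-Co3, 88.2% for Gm10925 and mt-Atp6, 69.1% for Gm10222 and mt-Nd4l, 13.1% for Gm29216 and mt-Co1 and 12.5% for Gm28438 and mt-Nd3. Gm28439, the copy of mt-Nd4, was listed at 0 in all 9 libraries. The other 6 mitochondrial members, mt-Nd1, mt-Nd2, mt-Nd5, mt-Nd6, mt-Cytb and mt-Atp8, had no such copy among annotated transcripts. Sequence outside annotated transcripts was not searched. On the mitochondrial genome mt-Atp8 lies between mt-Co2 and mt-Atp6, which both have copies in the stretch on chromosome 1. Its last 43 bases are the first of mt-Atp6, where Gm10925 is identical.

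Summed over the 13 mitochondrial genes as listed, the respiratory chain took 6.44, 4.74 and 10.8% in MDA-MB-231 EV livers, 5.48, 6.87 and 8.54% in MCF-10A EV livers and 24.1, 11.8 and 7.83% in PBS livers. The 91 nuclear subunits together took 2.21, 3.33 and 2.37% in MDA-MB-231 EV livers, 2.04, 3.52 and 3.16% in MCF-10A EV livers and 1.43, 3.12 and 2.89% in PBS livers. The 2 highest mitochondrial sums were in PBS 1 and PBS 2, and the lowest was in MDA-MB-231 EV 2. PBS 1 held the highest of the 9 values for 11 of the 13 mitochondrial genes and the lowest of the 9 for 57 of the 82 tested nuclear subunits. All 13 mitochondrial genes were above their own mean in both PBS 1 and PBS 2.

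The 7 mitochondrial subunits of complex I form the proton-pumping membrane arm. mt-Nd1, at the foot of that arm, was at 3373, 4461 and 13637 TPM in MDA-MB-231 EV livers, 4287, 6815 and 8007 TPM in MCF-10A EV livers and 21243, 8506 and 7272 TPM in PBS livers. mt-Nd2 was at 3689, 2887 and 7407 TPM in MDA-MB-231 EV livers, 3167, 3884 and 4355 TPM in MCF-10A EV livers and 17127, 7295 and 5491 TPM in PBS livers. For mt-Nd4 the values were 2483, 3422 and 10099 TPM in MDA-MB-231 EV livers, 3318, 4293 and 4821 TPM in MCF-10A EV livers and 22012, 7915 and 6080.04 TPM in PBS livers. In these 3 genes each MCF-10A EV library but the highest of mt-Nd1 lay below every PBS library, and MDA-MB-231 EV 3 lay within the PBS range while the other 2 MDA-MB-231 EV libraries lay below it. mt-Nd5 had 7284, 3862 and 8944 TPM in MDA-MB-231 EV livers, 4995, 4183 and 5192 TPM in MCF-10A EV livers and 18884, 8621 and 5341 TPM in PBS livers. The light-strand gene mt-Nd6 had 1017, 610.5 and 2103 TPM in MDA-MB-231 EV livers, 1609, 1641 and 1677 TPM in MCF-10A EV livers and 4479, 2340.2 and 2119.99 TPM in PBS livers. All 3 MDA-MB-231 EV and all 3 MCF-10A EV values of mt-Nd6 were below the lowest PBS value; the closest were MDA-MB-231 EV 3 at 2103 TPM and PBS 3 at 2120.0 TPM. mt-Nd3 was the most uneven, at 336, 8129 and 24610.4 TPM in MDA-MB-231 EV livers, 2656, 12458 and 16182 TPM in MCF-10A EV livers and 32522, 11480.3 and 12208 TPM in PBS livers, with MDA-MB-231 EV 1 and MCF-10A EV 1 low. mt-Nd4l, which shares its mature RNA with mt-Nd4, was at 537, 324 and 1744 TPM in MDA-MB-231 EV livers, 853, 622 and 1078 TPM in MCF-10A EV livers and 6068, 2354 and 612 TPM in PBS livers.

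mt-Cytb, the only mitochondrial subunit of complex III and the protein that holds both of its quinone sites, was at 4904, 3759 and 7646 TPM in MDA-MB-231 EV livers, 4944, 3937 and 4474 TPM in MCF-10A EV livers and 21638, 11164 and 6848 TPM in PBS livers. Every MCF-10A EV library lay below every PBS library, and MDA-MB-231 EV 3 lay above PBS 3. In complex IV, mt-Co1, the subunit with the oxygen-reducing centre, was the most abundant member of all as listed, without copies, with a mean of 21037 TPM: it had 17707, 8896 and 15293 TPM in MDA-MB-231 EV livers, 12176, 14709 and 20539 TPM in MCF-10A EV livers and 53138, 30833 and 16041 TPM in PBS livers. mt-Co3, a structural subunit, had 484, 2404 and 957 TPM in MDA-MB-231 EV livers, 491, 3139 and 3746 TPM in MCF-10A EV livers and 4893, 2678 and 3439.9 TPM in PBS livers, so that all 3 MDA-MB-231 EV values were under the lowest PBS value. In complex V, mt-Atp6, part of the proton channel, had 656, 1202 and 6356 TPM in MDA-MB-231 EV livers, 391, 2396 and 1569 TPM in MCF-10A EV livers and 3836, 1874 and 1744 TPM in PBS livers, with MDA-MB-231 EV 3 the highest of 9. mt-Atp8, a small subunit of the stator, had 21262, 7156 and 9362 TPM in MDA-MB-231 EV livers, 14742, 6967 and 8175 TPM in MCF-10A EV livers and 34407, 22772 and 10988 TPM in PBS livers. Within its group MDA-MB-231 EV 1 was thus highest in mt-Co1 and mt-Atp8 and lowest in mt-Nd3 and mt-Atp6.

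**Figure D1:**
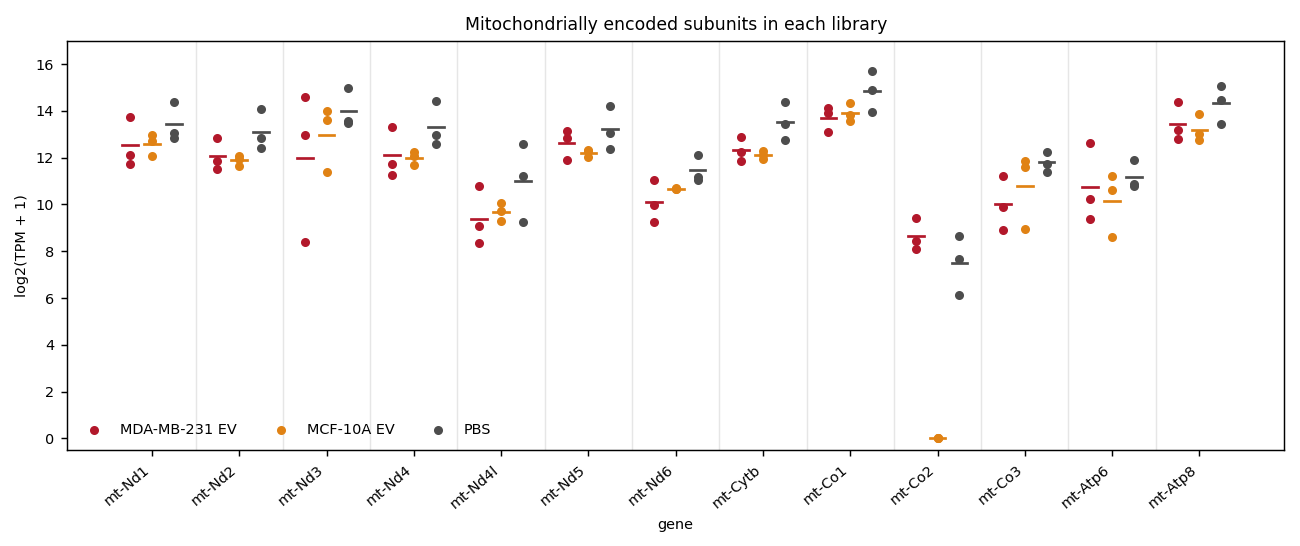
Level of each mitochondrially encoded subunit as log2(TPM + 1), 1 point per library and a bar at the group mean, for MDA-MB-231 EV, MCF-10A EV and PBS. The PBS bar lies highest in each gene except mt-Co2, where the 3 MCF-10A EV libraries are listed at 0 and the MDA-MB-231 EV libraries reach 681 TPM.

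In MDA-MB-231 EV over PBS, 12 of the 13 mitochondrial genes had a log2 change below 0, with a median of -1.15, beside a median of 0.21 over all tested features, of which 69.74% were above 0. No member was called, 0 of 13 mitochondrial and 0 of 82 nuclear, in a comparison where limma called 0% of all features. At an unadjusted p under 0.05 there were 2, mt-Nd6 (log2 change -1.36 ± 0.52, SE) and mt-Cytb (-1.18 ± 0.51), both lower and both at an adjusted p of 1, where 1.55% of all features passed. Groups did not overlap for mt-Nd6 and mt-Co3 (log2 change -1.78 ± 0.81), both lower in MDA-MB-231 EV, where 0.801% of all features were lower in this way; no member was higher without overlap, against 5.23% of all features. The remaining changes below 0 ran from -2.03 ± 1.34 in mt-Nd3 to -0.44 ± 0.88 in mt-Atp6, mt-Atp6 was at 0.25 without MDA-MB-231 EV 1, and mt-Nd3, with 336 TPM in that library, was at -0.23 without it. With PBS 1 left out the median of the 13 was -0.65.

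In MCF-10A EV over PBS all 12 mitochondrial genes with values above 0 in both groups had a change below 0, between -1.42 ± 0.51 in mt-Cytb and -0.78 ± 0.52 in mt-Nd6, with a median of -1.03 beside 0.07 over all tested features, of which 56.78% were above 0. Only mt-Co2 was called among the members (adjusted p = 5e-04), where 0.194% of all features were called. At an unadjusted p under 0.05 there were 3, mt-Co2, mt-Nd2 (log2 change -1.23 ± 0.54) and mt-Cytb (adjusted p = 0.967), where 3.2% of all features passed. Groups did not overlap for 6 genes, all lower in MCF-10A EV: mt-Nd2, mt-Nd4, mt-Nd5, mt-Nd6, mt-Cytb and mt-Co2, against 4.74% of all features lower in this way. No member was higher without overlap, against 2.95% of all features. Without PBS 1 the median of the 12 was -0.61. The comparison shares its PBS libraries with that of MDA-MB-231 EV.

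Between the 2 EV groups the mitochondrial genes lay on both sides of 0. In MDA-MB-231 EV over MCF-10A EV the median over the 12 genes other than mt-Co2 was 0.02, with 6 above and 6 below 0, beside 0.17 over all tested features, of which 65.05% were above 0. The 12 changes ran from -0.996 ± 1.34 in mt-Nd3 to 0.59 ± 0.88 in mt-Atp6, and both turned with 1 library left out, mt-Nd3 to 0.80 without MDA-MB-231 EV 1 and mt-Atp6 to -0.36 without MDA-MB-231 EV 3. Only mt-Co2 was called (adjusted p = 0.000163) among the members, where 0.218% of all features were called, and it was also the only member at an unadjusted p under 0.05, where 3.83% of all features passed.

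mt-Co2 carries the copper site that receives electrons from cytochrome c. As listed it had 681, 271 and 341 TPM in MDA-MB-231 EV livers, 0 TPM in all 3 MCF-10A EV livers and 401, 202 and 69.1 TPM in PBS livers. Every MCF-10A EV library was thus listed at 0 and every library of the other 2 groups above 0, which is why no fold is given. Its copy Gm28661 had 11832, 15936 and 21212 TPM in MDA-MB-231 EV livers, 10395, 10242 and 11928 TPM in MCF-10A EV livers and 52634, 30306 and 18791 TPM in PBS livers. In every library the copy was far above the gene, and it was not at 0 in the MCF-10A EV libraries. With both listed values added, mt-Co2 and Gm28661 had 12513, 16207 and 21554 TPM in MDA-MB-231 EV livers, 10395, 10242 and 11928 TPM in MCF-10A EV livers and 53035, 30507 and 18859.8 TPM in PBS livers. On this sum the log2 change was -0.93 ± 0.47 in MDA-MB-231 EV over PBS, with overlapping groups, where the gene as listed gave 1.16 ± 0.61. The sum gave 0.59 ± 0.47 in MDA-MB-231 EV over MCF-10A EV, then -1.53 ± 0.47 in MCF-10A EV over PBS (limma, adjusted p = 1 and 0.77), with groups that did not overlap in either. No member was called in any comparison once the full-length copies were added to their genes. Whether the 0 values come from how reads were divided between gene and copy was not tested.

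The other copies took unequal shares from library to library. Gm28437, the copy of mt-Co3, had 11728, 18412 and 16859 TPM in MDA-MB-231 EV livers, 10152, 15593 and 18586 TPM in MCF-10A EV livers and 47841, 26217 and 18111 TPM in PBS livers. Gm10925, the copy of mt-Atp6, had 1975, 11404 and 25070.2 TPM in MDA-MB-231 EV livers, 4669, 16367 and 20813 TPM in MCF-10A EV livers and 39124, 13866 and 16365 TPM in PBS livers. Both copies were highest in PBS 1, as were the mitochondrial genes without an annotated copy, mt-Nd1 among them. Gm29216, the fragment of mt-Co1, had 6136, 15121 and 3.13 TPM in MDA-MB-231 EV livers, 3439.8, 3351 and 165 TPM in MCF-10A EV livers and 6.24, 28.7 and 223 TPM in PBS livers. Its highest values were in MDA-MB-231 EV 1 and 2, and it was nearly at 0 in MDA-MB-231 EV 3 and PBS 1. Gm28438, the copy of mt-Nd3, had 2671, 2462 and 559 TPM in MDA-MB-231 EV livers, 1348, 0 and 0 TPM in MCF-10A EV livers and 7828, 1151 and 1209.7 TPM in PBS livers. Gm10222, the copy of mt-Nd4l, had 6802, 773 and 1336 TPM in MDA-MB-231 EV livers, 2851, 1229 and 1365 TPM in MCF-10A EV livers and 8759, 6132 and 2497 TPM in PBS livers. After adding the 5 full-length copies above 0, all 13 mitochondrial genes had a change below 0 in both comparisons with PBS and 0 were called. The 6 genes without an annotated copy, mt-Atp8 among them, gave medians of -0.97 in MDA-MB-231 EV over PBS, 0.21 in MDA-MB-231 EV over MCF-10A EV, then -1.06 in MCF-10A EV over PBS. Without PBS 1 the medians of these 6 were -0.53 in MDA-MB-231 EV and -0.63 in MCF-10A EV over PBS, and the median between the EV groups was -0.13 without MDA-MB-231 EV 3.

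**Figure D2:**
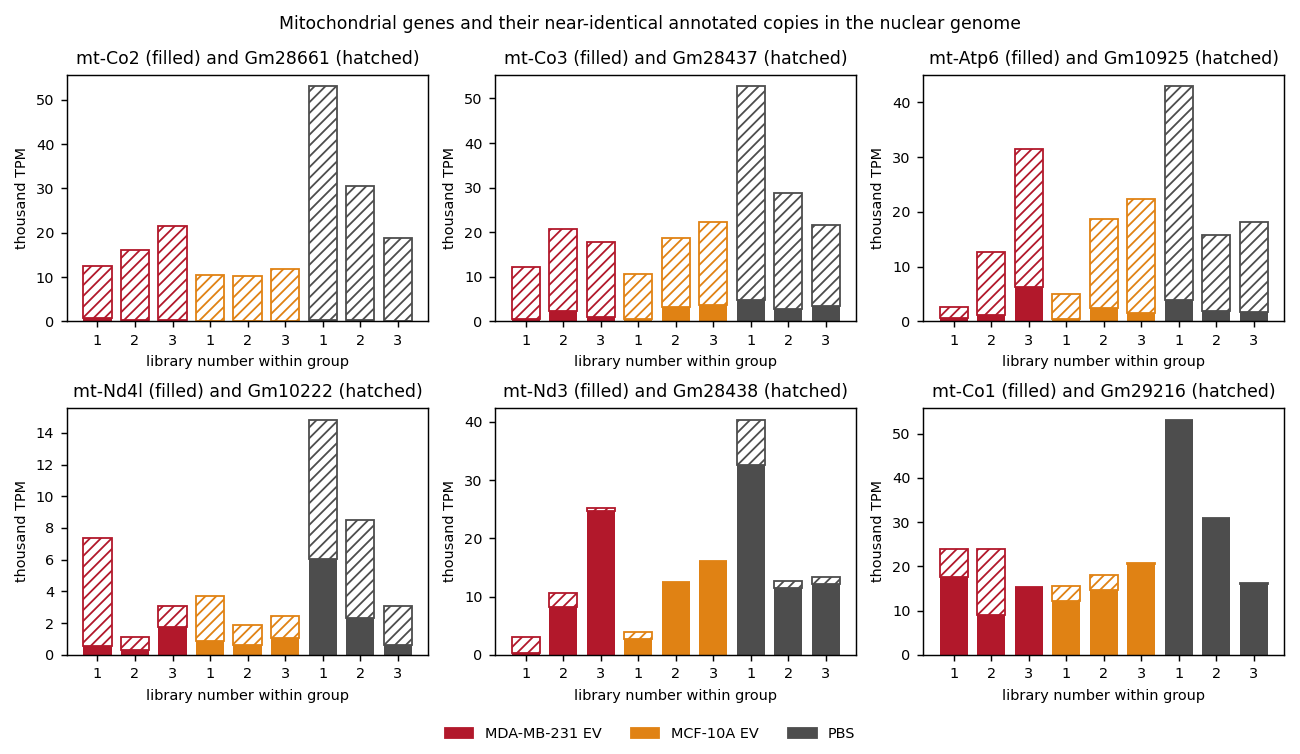
Listed TPM of 6 mitochondrial genes, filled, with their near-identical annotated copies on chromosome 1 stacked on top, hatched, 1 bar per library in the order MDA-MB-231 EV, MCF-10A EV and PBS. The copy makes up nearly all of the bar for mt-Co2 (98.9% over the 9 libraries) and most of it for mt-Co3 and mt-Atp6, while mt-Nd3 and mt-Co1 are mostly the gene itself.

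Gene pairs that share a mature RNA give an internal check on these levels. mt-Atp8 and mt-Atp6 lie on the same messenger and overlap by 43 bases, shown here because it belongs to both genes.
Overlap of mt-Atp8 and mt-Atp6, chrM:7927-7969, GRCm38, plus strand: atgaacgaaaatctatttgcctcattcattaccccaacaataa
The ratio of listed TPM, mt-Atp8 to mt-Atp6, was 32.4, 5.95 and 1.47 in MDA-MB-231 EV livers, 37.7, 2.91 and 5.21 in MCF-10A EV livers and 8.97, 12.2 and 6.30 in PBS livers. With Gm10925 added to mt-Atp6 it was 8.08, 0.568 and 0.298 in MDA-MB-231 EV livers, 2.91, 0.371 and 0.365 in MCF-10A EV livers and 0.801, 1.45 and 0.607 in PBS livers. Library 1 of MDA-MB-231 EV and library 1 of MCF-10A EV had the highest ratios both ways. For mt-Nd4l to mt-Nd4 the listed ratio lay between 0.095 and 0.297 in all libraries, and with Gm10222 added it lay between 0.305 and 2.955, highest in MDA-MB-231 EV 1. Although mt-Atp8 and mt-Atp6 lie on 1 messenger, their listed ratio thus ran from 1.47 to 37.7 between libraries. Levels of the genes in these pairs are therefore not safely compared with each other. Why the ratios vary was not tested.

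Of the 91 nuclear subunits 82 had a mean of at least 1 TPM and were tested: 39 of complex I, 4 of complex II, 8 of complex III, 14 of complex IV and 17 of complex V. The 39 include Ndufb4c, which is annotated as a processed pseudogene and averaged 274 TPM. Their mean levels ran from 2.19 TPM in Cox6b2 to 2876 TPM in Uqcrq with a median of 236 TPM, and 65 of the 82 averaged at least 100 TPM. The median of the 13 mitochondrial genes was 7160.42 TPM. Mitochondrial and nuclear members thus differed in level within each mixed complex: the medians were 7160.42 and 190 TPM in complex I, 7702 and 394 TPM in complex III, 2470.18 and 372 TPM in complex IV and 8659 and 387 TPM in complex V, mitochondrial value before nuclear in each pair. These medians are of listed values, without the copies. The mitochondrial median of complex IV is mt-Co3, where the copy Gm28437 held 89.2% of the TPM of both. The mitochondrial medians therefore do not rank the complexes. Most nuclear subunits lay on the same side of their own mean in 7 of the 9 libraries: 62 of 82 were below it in MDA-MB-231 EV 3, 57 in MCF-10A EV 1 and 75 in PBS 1, whereas 72 were above it in MDA-MB-231 EV 2, 70 in MCF-10A EV 2, 71 in PBS 2 and 65 in PBS 3. MDA-MB-231 EV 1 and MCF-10A EV 3 were mixed, with 35 and 41 of 82 above.

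**Figure D3:**
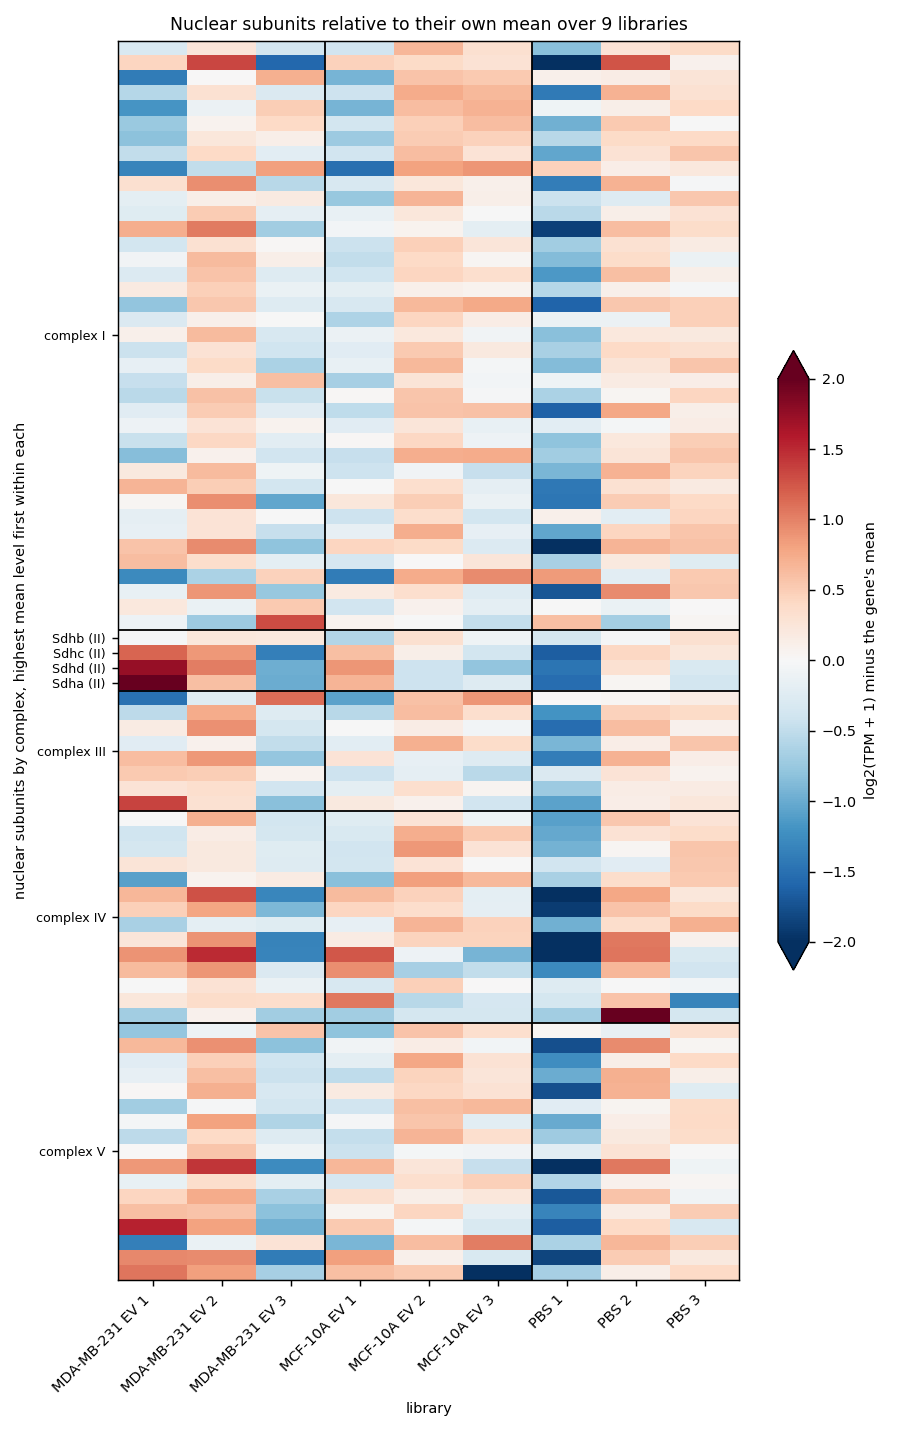
Each of the 82 tested nuclear subunits as log2(TPM + 1) minus its own mean over the 9 libraries, by complex from I at the top to V at the bottom and by falling mean of that log2 level within each, with MDA-MB-231 EV, MCF-10A EV and PBS libraries from left to right (red above, blue below the gene's mean; the scale ends at 2.0 either way). The PBS 1 column is blue for 75 of 82 genes, and the complex II genes Sdha, Sdhc and Sdhd are reddest in MDA-MB-231 EV 1.

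No nuclear subunit was called or reached an unadjusted p under 0.05 in any of the 3 comparisons. In MDA-MB-231 EV over PBS the median log2 change over the 82 was 0.15 (55 above and 27 below 0), beside 0.21 for all features, and it was -0.07 after centring each library on its median and -0.25 without PBS 1. In MDA-MB-231 EV over MCF-10A EV the median was -0.05, with 37 above and 45 below 0, and it was 0.16 without MDA-MB-231 EV 3. In MCF-10A EV over PBS the median was 0.23, with 64 above and 18 below 0, and it was -0.19 without PBS 1. Changes of single nuclear subunits ran from -1.34 to 1.23 in MDA-MB-231 EV over PBS, from -0.72 to 0.78 in MDA-MB-231 EV over MCF-10A EV, then from -1.37 to 0.81 in MCF-10A EV over PBS. The low ends over PBS, -1.34 and -1.37, were both Cox8b. This gene averaged at least 1 TPM only through PBS 2, with 20.99 TPM there and at most 0.72 TPM in any other library. Groups did not overlap for Uqcrc1, higher in MDA-MB-231 EV than in MCF-10A EV (with mt-Co2, 2 members, where 4.73% of all features were higher in this way), and for Cox7b, lower in MDA-MB-231 EV than in MCF-10A EV (1 member, where 1.8% of all features were lower in this way). By complex, the nuclear medians in MDA-MB-231 EV over PBS were -0.37, 0.29, -0.14, -0.32 and -0.19 for complexes I to V without PBS 1. In MCF-10A EV over PBS they were -0.19, -0.16, -0.25, -0.21 and -0.15 for complexes I to V without PBS 1. Every one of these medians was above 0 with PBS 1 kept. In MDA-MB-231 EV over MCF-10A EV the median of each complex also changed sign with 1 library left out: complex I was at 0.056 and complex II at -0.028 without MDA-MB-231 EV 1, complex III at -0.12 without MDA-MB-231 EV 2, and complexes IV and V at 0.23 and 0.28 without MDA-MB-231 EV 3.

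**Figure D4:**
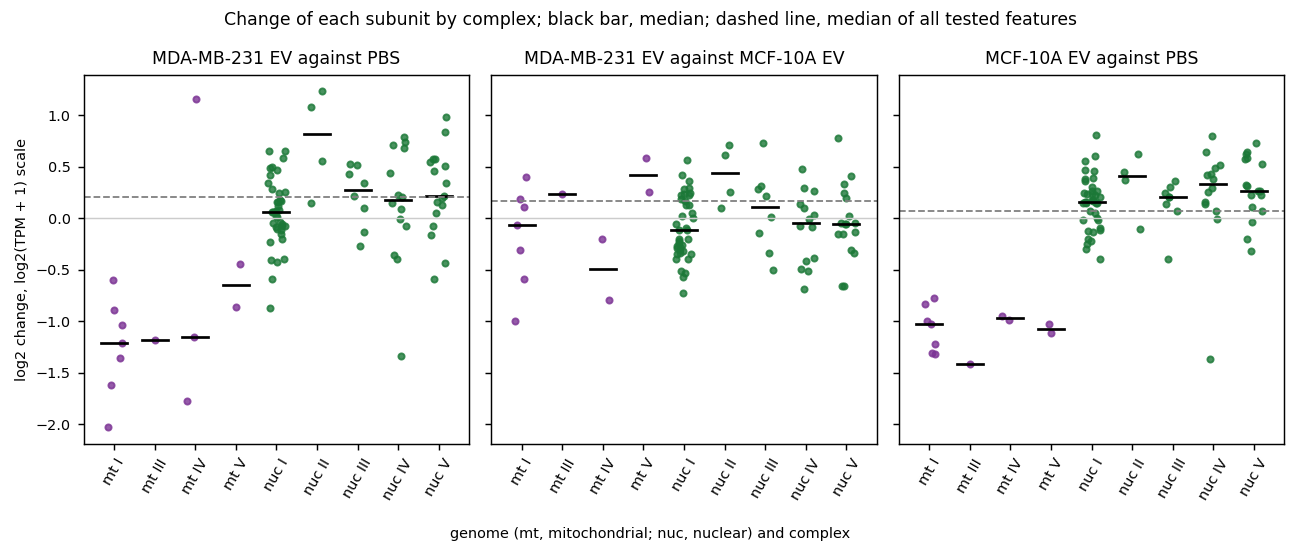
Log2 change of each tested subunit on the log2(TPM + 1) scale in the 3 comparisons, by genome (mt, mitochondrial; nuc, nuclear) and complex, 1 point per gene, with a black bar at the median of each set and a dashed line at the median of all tested features. The mitochondrial sets lie below 0 in both comparisons with PBS (median -1.15 and -1.03) apart from mt-Co2 in MDA-MB-231 EV over PBS, while the nuclear medians lie between -0.11 and 0.44 apart from complex II in MDA-MB-231 EV over PBS (0.82); mt-Co2 is left out where a group is listed at 0.

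Nuclear complex I subunits had median changes of 0.06 in MDA-MB-231 EV over PBS (23 above and 16 below 0), -0.11 in MDA-MB-231 EV over MCF-10A EV (16 above and 23 below 0), then 0.16 in MCF-10A EV over PBS (28 above and 11 below 0). The 7 nuclear genes of the catalytic core, which bind NADH and carry electrons along iron-sulphur clusters, had medians of 0.12, 0.23 and -0.01 in the same order. The last was at 0.19 without MCF-10A EV 1. Ndufv1, the flavoprotein that oxidises NADH, was at 119, 98.6 and 67.3 TPM in MDA-MB-231 EV livers, 61.2, 77.5 and 92.04 TPM in MCF-10A EV livers and 49.1, 88.2 and 65.4 TPM in PBS livers (log2 change 0.49 ± 0.40 in MDA-MB-231 EV over PBS), with overlap between all groups. The most abundant was Ndufa4, named as a complex I gene although its protein has since been assigned to complex IV: it had 608, 1145 and 151 TPM in MDA-MB-231 EV livers, 619, 587 and 549 TPM in MCF-10A EV livers and 71.6, 1078 and 477 TPM in PBS livers. Its 2 lowest values were PBS 1 and MDA-MB-231 EV 3, and its change in MCF-10A EV over PBS was 0.81 ± 0.95, or -0.30 without PBS 1. The accessory subunit Ndufb4 ran otherwise, at 29.00, 46.1 and 99.3 TPM in MDA-MB-231 EV livers, 26.6, 120.2 and 139 TPM in MCF-10A EV livers and 131, 61.9 and 104 TPM in PBS livers (-0.87 ± 0.68 in MDA-MB-231 EV over PBS). Ndufb7, also accessory, had 157, 419 and 681 TPM in MDA-MB-231 EV livers, 217, 619 and 598 TPM in MCF-10A EV livers and 447, 460.3 and 496 TPM in PBS livers. In both genes MDA-MB-231 EV 1 and MCF-10A EV 1 were the 2 lowest libraries. Ndufa6, an accessory subunit next in abundance to Ndufa4, had 369, 537 and 354 TPM in MDA-MB-231 EV livers, 347, 726 and 571 TPM in MCF-10A EV livers and 254, 554 and 595 TPM in PBS livers. Ndufa9, an accessory subunit of the arm in the matrix, had 114, 155 and 93.9 TPM in MDA-MB-231 EV livers, 74.2, 94.4 and 71.9 TPM in MCF-10A EV livers and 52.2, 162 and 136 TPM in PBS livers (0.57 ± 0.47 in MDA-MB-231 EV over MCF-10A EV). Ndufc1, a small accessory subunit, had 110.3, 277 and 159.5 TPM in MDA-MB-231 EV livers, 152, 300.01 and 324 TPM in MCF-10A EV livers and 62.3, 277 and 266 TPM in PBS livers (0.56 ± 0.63 in MCF-10A EV over PBS, or -0.14 without PBS 1). All 3 genes were lowest in PBS 1, and their groups overlapped. Ndufb1, an accessory subunit, had the largest difference of complex I between the EV groups, -0.72 ± 0.50 in MDA-MB-231 EV over MCF-10A EV, from 60.97, 117 and 84.02 TPM in MDA-MB-231 EV livers, 80.1, 184 and 186 TPM in MCF-10A EV livers and 67.95, 132 and 162 TPM in PBS livers.

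All 4 subunits of complex II, which also works in the citric acid cycle, had a change above 0 in MDA-MB-231 EV over PBS (median 0.82) and in MDA-MB-231 EV over MCF-10A EV (median 0.44), and 3 of 4 in MCF-10A EV over PBS (median 0.42). Sdha, the flavoprotein that oxidises succinate, had 183, 58.8 and 18.8 TPM in MDA-MB-231 EV livers, 61.96, 28.4 and 31.7 TPM in MCF-10A EV livers and 12.6, 39.4 and 29.2 TPM in PBS livers (log2 change 1.23 ± 0.75 in MDA-MB-231 EV over PBS, or 0.43 without MDA-MB-231 EV 1). MDA-MB-231 EV 1 stood far above the rest, while MDA-MB-231 EV 3 lay below PBS 2 and PBS 3. Sdhd, a membrane anchor, had 208, 126 and 30.6 TPM in MDA-MB-231 EV livers, 114, 45.5 and 34.9 TPM in MCF-10A EV livers and 21.6, 75.9 and 49.4 TPM in PBS livers (1.09 ± 0.75, or 0.51 without MDA-MB-231 EV 1). Sdhc, its partner anchor, had 143, 116 and 23.9 TPM in MDA-MB-231 EV livers, 97.1, 68.7 and 48.7 TPM in MCF-10A EV livers and 19.5, 85.01 and 73.96 TPM in PBS livers (0.56 ± 0.74), and its change was -0.10 without PBS 1. In Sdha, Sdhc and Sdhd MDA-MB-231 EV 1 was highest and PBS 1 lowest of the 9 libraries. Sdhb, the iron-sulphur subunit and the most abundant of the 4, had 262, 309.7 and 305 TPM in MDA-MB-231 EV livers, 176, 329.7 and 249 TPM in MCF-10A EV livers and 208, 262 and 331 TPM in PBS livers (0.15 ± 0.39), and its change was -0.02 without PBS 1. Sdhb did not share the high value in MDA-MB-231 EV 1. None of the 4 reached an unadjusted p under 0.05.

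In complex III the nuclear medians were 0.28 in MDA-MB-231 EV over PBS, 0.11 in MDA-MB-231 EV over MCF-10A EV, then 0.21 in MCF-10A EV over PBS, over 8 genes. Uqcrc1, a core subunit facing the matrix, had 216, 211 and 158 TPM in MDA-MB-231 EV livers, 113, 132 and 103 TPM in MCF-10A EV livers and 122, 183 and 158 TPM in PBS livers. All 3 MDA-MB-231 EV values were above all 3 MCF-10A EV values, a log2 change of 0.74 ± 0.36 (limma, adjusted p = 1), and overlapped those of PBS. Uqcrq, a small accessory subunit and the most abundant nuclear member, had 893, 2121 and 5435 TPM in MDA-MB-231 EV livers, 1195, 3776 and 4599.7 TPM in MCF-10A EV livers and 2529.6, 2569 and 2769.7 TPM in PBS livers. The PBS libraries were close to each other in Uqcrq, and both EV groups spanned them. Uqcr11, another small subunit, had 628, 1501 and 748 TPM in MDA-MB-231 EV livers, 609.7, 1372 and 1131 TPM in MCF-10A EV livers and 393, 1240.4 and 1171 TPM in PBS livers. Uqcr10, a small subunit as well, had 628, 1058 and 438 TPM in MDA-MB-231 EV livers, 558, 617 and 535 TPM in MCF-10A EV livers and 193, 857 and 589 TPM in PBS livers (0.52 ± 0.57 in MDA-MB-231 EV over PBS, or -0.10 without PBS 1). Uqcrb, another accessory subunit, differed by -0.50 ± 0.47 in MDA-MB-231 EV over MCF-10A EV, and by 0.36 ± 0.47 in MCF-10A EV over PBS, or -0.053 without PBS 1.

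Nuclear complex IV medians over 14 genes were 0.18 in MDA-MB-231 EV over PBS, -0.04 in MDA-MB-231 EV over MCF-10A EV, then 0.34 in MCF-10A EV over PBS. Cox4i1, the most abundant of them and the form of that subunit found in most tissues, had 845, 1391 and 657 TPM in MDA-MB-231 EV livers, 715, 1022 and 796 TPM in MCF-10A EV livers and 400.2, 1238 and 1021 TPM in PBS livers. Cox7b had 191, 261 and 251 TPM in MDA-MB-231 EV livers, 265, 479.99 and 412 TPM in MCF-10A EV livers and 154, 379.98 and 488 TPM in PBS livers, with every MDA-MB-231 EV value below every MCF-10A EV value (-0.69 ± 0.49) and PBS spanning both. Cox6c had 471, 693 and 490.2 TPM in MDA-MB-231 EV livers, 503, 1033 and 895 TPM in MCF-10A EV livers and 306, 762 and 807 TPM in PBS livers. Both Cox4i1 and Cox6c were lowest in PBS 1. Cox7c, a small subunit of similar abundance, had 486, 706 and 519.9 TPM in MDA-MB-231 EV livers, 474, 1129 and 750.4 TPM in MCF-10A EV livers and 319, 632 and 906 TPM in PBS livers. Cox6a1, the liver form of its subunit, had 690.1, 1057 and 176 TPM in MDA-MB-231 EV livers, 676, 603 and 381 TPM in MCF-10A EV livers and 75.4, 750.4 and 514 TPM in PBS livers (0.80 ± 0.88 in MCF-10A EV over PBS, or -0.21 without PBS 1). Cox7a2l, which helps complexes III and IV join, had 59.1, 70.3 and 30.6 TPM in MDA-MB-231 EV livers, 73.2, 23.4 and 26.5 TPM in MCF-10A EV livers and 15.1, 60.2 and 28.6 TPM in PBS livers (0.74 ± 0.61 in MDA-MB-231 EV over PBS, or 0.27 without PBS 1). Cox5a, named after its values were seen, had 290.1, 439.7 and 61.6 TPM in MDA-MB-231 EV livers, 366, 144 and 80.7 TPM in MCF-10A EV livers and 36.7, 326 and 126 TPM in PBS livers. PBS 1 and MDA-MB-231 EV 3 were lowest in Cox5a and in Cox6a1.

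Complex IV has forms that replace its usual subunits in muscle, heart, testis or lung. Of 8 such forms on the list, Ndufa4l2 included, 4 averaged at least 1 TPM, and none was called in any comparison. Cox7a1, the heart and muscle form, stayed between 5.47 and 10.1 TPM in all 9 libraries. Cox8b, the form of muscle and brown fat in rodents, had 0, 0.72 and 0 TPM in MDA-MB-231 EV livers, 0, 0.27 and 0.27 TPM in MCF-10A EV livers and 0, 20.99 and 0.27 TPM in PBS livers. Only PBS 2 held more than 1 TPM of Cox8b, and without it the gene was near 0 everywhere. PBS 2 also held the fat cell markers: their summed level was 11.96, 22.9 and 24.9 TPM in MDA-MB-231 EV livers, 21.7, 18.5 and 19.7 TPM in MCF-10A EV livers and 16.02, 491 and 20.1 TPM in PBS livers. In PBS 2 Cfd was at 285 TPM, Fabp4 at 162 TPM, Adipoq at 17.6 TPM and Ucp1, the uncoupling protein of brown fat, at 2.17 TPM, with Lep at 0.09 TPM. Skeletal and heart muscle markers summed to between 1.31 and 16.3 TPM over the 9 libraries, with 8.18 TPM in PBS 2. The part of fat tissue in the Cox8b value was not tested. Cox4i2, the lung form, averaged 0.82 TPM, Cox6a2, Ndufs6b and the other Atp5o feature were lower, and Ndufa11b, Ndufb11b, Cox6c2, Cox7b2 and Cox8c were at 0 in every library. The 7 usual partners of those forms had medians of 0.23 in MDA-MB-231 EV over PBS, -0.09 in MDA-MB-231 EV over MCF-10A EV, then 0.51 in MCF-10A EV over PBS, and without PBS 1 they had -0.35 in MDA-MB-231 EV and -0.22 in MCF-10A EV over PBS. Between the EV groups their median was 0.377 without MDA-MB-231 EV 3.

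In complex V the 17 tested nuclear subunits had medians of 0.22 in MDA-MB-231 EV over PBS, -0.05 in MDA-MB-231 EV over MCF-10A EV, then 0.27 in MCF-10A EV over PBS. Atp5a1 and Atp5b encode the catalytic head. Atp5a1 had 509, 303 and 89.00 TPM in MDA-MB-231 EV livers, 251, 168 and 139.9 TPM in MCF-10A EV livers and 54.9, 229 and 139 TPM in PBS livers (0.99 ± 0.69 in MDA-MB-231 EV over PBS, or 0.42 without PBS 1). Atp5b had 1117, 1348 and 405 TPM in MDA-MB-231 EV livers, 682, 787 and 683 TPM in MCF-10A EV livers and 209.8, 1369 and 735 TPM in PBS livers. Both were lowest in PBS 1 and next lowest in MDA-MB-231 EV 3. In the ring that turns with the proton flow, Atp5g3 had 653, 957 and 149 TPM in MDA-MB-231 EV livers, 563, 422 and 258 TPM in MCF-10A EV livers and 63.97, 742 and 336 TPM in PBS livers, Atp5g1 averaged 394 TPM and Atp5g2 averaged 5.71 TPM. These 3 genes make the same mature protein. Atp5h, in the stalk that holds the head still, had 458, 734 and 1168 TPM in MDA-MB-231 EV livers, 450.4, 1167 and 992 TPM in MCF-10A EV livers and 798, 709.9 and 983 TPM in PBS livers, without a low value in PBS 1. Atp5j, in the same stalk, had 236, 379 and 298 TPM in MDA-MB-231 EV livers, 296, 582 and 604 TPM in MCF-10A EV livers and 328, 397 and 502 TPM in PBS livers (-0.65 ± 0.43 in MDA-MB-231 EV over MCF-10A EV). The EV groups overlapped in Atp5j, since MCF-10A EV 1 lay below MDA-MB-231 EV 2 and 3. Atp5e, in the central stalk, had 59.7, 142 and 188 TPM in MDA-MB-231 EV livers, 82.6, 239 and 317 TPM in MCF-10A EV livers and 99.9, 248 and 220.2 TPM in PBS livers (-0.65 ± 0.63 in MDA-MB-231 EV over MCF-10A EV, or -0.17 without MDA-MB-231 EV 1). Atp5md, a small membrane subunit, had 447, 729 and 395 TPM in MDA-MB-231 EV livers, 455, 893 and 637 TPM in MCF-10A EV livers and 220.1, 565 and 691 TPM in PBS livers. Atp5mpl, another of that kind, had a log2 change of 0.73 ± 0.59 in MCF-10A EV over PBS, or 0.071 without PBS 1, with 114 TPM in PBS 1 and 631 and 328 TPM in PBS 2 and 3. Atp5l, in the membrane part, had 0.62 ± 0.59 in MCF-10A EV over PBS, or -0.0225 without PBS 1.

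The balance between both genomes was expressed as the ratio of summed mitochondrial to summed nuclear subunit TPM, with mt-Co2 left out. Its log2 averaged 1.41 ± 0.85 in MDA-MB-231 EV, 1.27 ± 0.27 in MCF-10A EV and 2.47 ± 1.40 in PBS livers (SD, n = 3 each). The difference was -1.07 in MDA-MB-231 EV over PBS, 0.13 in MDA-MB-231 EV over MCF-10A EV, then -1.20 in MCF-10A EV over PBS. Exact two-sided permutation tests gave p = 0.5, 0.8 and 0.1, or 0.75, 0.8 and 0.3 adjusted over the 3 comparisons; 0.1 is the smallest p that 3 against 3 allows. MDA-MB-231 EV overlapped both other groups, while the highest MCF-10A EV ratio, 2.7051, lay just under the lowest PBS ratio, 2.7093. Without PBS 1 the differences from PBS were -0.27 for MDA-MB-231 EV and -0.40 for MCF-10A EV. A second ratio added the full-length copies to their genes and took in mt-Co2 with Gm28661, but not the fragment Gm29216. This ratio itself was 4.49, 2.90 and 7.32 in MDA-MB-231 EV livers, 4.15, 3.25 and 4.49 in MCF-10A EV livers and 27.7, 6.27 and 4.69 in PBS livers. Taken complex by complex, without copies and mt-Co2, the difference in MDA-MB-231 EV over PBS was -1.02 in complex I, -1.29 in complex III, -1.30 in complex IV and -0.91 in complex V. In MCF-10A EV over PBS it was -1.14, -1.56, -1.24 and -1.29 in the same order. Without PBS 1 these were -0.18, -0.62, -0.42 and -0.14 in MDA-MB-231 EV over PBS and -0.30, -0.90, -0.35 and -0.52 in MCF-10A EV over PBS. The lowest adjusted exact permutation p among the 12 comparisons by complex was 0.48.

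How the nuclear sum was divided among the complexes varied less between groups. Complex I took 31.2% ± 1.22 of nuclear subunit TPM in MDA-MB-231 EV, 32.1% ± 1.16 in MCF-10A EV and 33.4% ± 0.515 in PBS livers (SD, n = 3 each). All 3 PBS libraries lay above all libraries of both EV groups, with an exact permutation p of 0.1 against either, or 0.75 adjusted over the 15 comparisons of shares. Complex II took 2.34% ± 1.09, 1.63% ± 0.54 and 1.66% ± 0.17 in the same order of groups. For complex III the shares were 21.9% ± 8.13, 21.1% ± 3.95 and 21.9% ± 3.47, for complex IV 18.8% ± 3.50, 20.2% ± 2.33 and 18.9% ± 3.01, and for complex V 25.7% ± 4.57, 24.9% ± 2.17 and 24.1% ± 1.69. In complexes II to V the group means differed by less than the spread within the MDA-MB-231 EV group. MDA-MB-231 EV 3 had the largest complex III share, 31.2%, most of it in Uqcrq.

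Several nuclear subunits have near-identical copies as well. The same search found them for 10 nuclear symbols. Among members averaging at least 1 TPM, 6 had a copy that held over 10% of the TPM of both. The copy Ndufb4c, itself a member by name, held 76.5% of its sum with Ndufb4, Gm6969 held 60.2% beside Cox7a2l, Ndufs5-ps held 53.3% beside Ndufs5, Gm10221 held 43.4% beside Atp5l, Gm10039 held 30.1% beside Atp5g1 and Ndufa12-ps held 13.7% beside Ndufa12. Levels of these genes and their differences above carry that uncertainty. The second Atp5o feature, under 1 TPM, shares its sequence with the first and with Donson. Gm6969 had 234, 117 and 35.1 TPM in MDA-MB-231 EV livers, 99.1, 10.2 and 7.93 TPM in MCF-10A EV livers and 25.02, 41.9 and 13.4 TPM in PBS livers, where Cox7a2l itself was at most 73.2 TPM.

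Promoters of nuclear subunit genes are known for binding sites of NRF1, of the ETS factor GABPA and of YY1. RefSeq promoters (GRCm38.p6, 250 bases before to 50 after the start) were found for 69 of the nuclear members, 74 windows in all, and searched on both strands. The NRF1 motif GCGCANGCG was in 21 of the 74 (28.4%), against 6.25% of all 32851 promoters. The ETS motif CCGGAAG was in 17 (23.0%, against 8.86%) and the YY1 motif AAGATGGC in 10 (13.5%, against 2.75%). The 120 bases before the start of Sdha and of Sdhd are shown, since these were the nuclear members with the highest change above 0 in MDA-MB-231 EV over PBS; capitals mark NRF1 matches, 3 in Sdha and 1 in Sdhd, and in Sdhd also an ETS match on the opposite strand (CTTCCGG).
Sdha, chr13:74350241-74350360, GRCm38.p6, minus strand: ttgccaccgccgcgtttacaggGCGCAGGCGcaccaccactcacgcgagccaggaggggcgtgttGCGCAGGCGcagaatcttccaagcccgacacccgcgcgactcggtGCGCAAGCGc
Sdhd, chr9:50603850-50603969, GRCm38.p6, minus strand: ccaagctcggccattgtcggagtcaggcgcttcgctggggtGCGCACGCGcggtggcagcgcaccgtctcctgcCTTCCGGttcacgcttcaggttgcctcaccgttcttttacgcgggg
A match is a description of these letters only. Nrf1 was at 4.90, 1.76 and 6.41 TPM in MDA-MB-231 EV livers, 3.63, 1.30 and 2.60 TPM in MCF-10A EV livers and 3.67, 1.74 and 2.22 TPM in PBS livers. Gabpa had 11.2, 2.75 and 2.49 TPM in MDA-MB-231 EV livers, 5.31, 2.61 and 3.09 TPM in MCF-10A EV livers and 3.05, 2.08 and 2.84 TPM in PBS livers. Yy1 had 12.2, 5.10 and 3.04 TPM in MDA-MB-231 EV livers, 9.15, 3.87 and 4.41 TPM in MCF-10A EV livers and 3.62, 4.82 and 4.92 TPM in PBS livers. Nrf1 was highest in MDA-MB-231 EV 3, Gabpa and Yy1 in MDA-MB-231 EV 1. Of the other regulators listed, Ppargc1a was highest in MDA-MB-231 EV 1, Ppargc1b and Pprc1 in MDA-MB-231 EV 3, and Gabpb1, Esrra and Perm1 in PBS 1. A link between these levels and those of Sdha or Sdhd was not tested. Of 9 nuclear regulators listed, 7 were tested and 0 were called by limma in any comparison, with medians of 0.34 in MDA-MB-231 EV over PBS, 0.26 in MDA-MB-231 EV over MCF-10A EV, then -0.03 in MCF-10A EV over PBS. The first was at -0.0297 without MDA-MB-231 EV 3 and the last at 0.18 without PBS 1.

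Genes around the chain gave the following values, with 0 called in every list and comparison by limma. The 10 electron carriers and chain members outside the name rule had medians of 0.50 in MDA-MB-231 EV over PBS, 0.21 in MDA-MB-231 EV over MCF-10A EV, then 0.24 in MCF-10A EV over PBS. The second was at -0.0351 without MDA-MB-231 EV 1 and the last at -0.0101 without PBS 1. Among these genes Cyc1, a cytochrome of complex III, had 162, 264 and 79.8 TPM in MDA-MB-231 EV livers, 109.7, 98.00 and 88.2 TPM in MCF-10A EV livers and 55.7, 152 and 78.7 TPM in PBS livers. Etfdh, which feeds electrons from fatty acid oxidation to ubiquinone, had 152, 82.5 and 32.3 TPM in MDA-MB-231 EV livers, 38.7, 14.8 and 14.1 TPM in MCF-10A EV livers and 18.2, 79.5 and 45.3 TPM in PBS livers, a log2 change of 1.83 ± 0.69 in MDA-MB-231 EV over MCF-10A EV (limma, adjusted p = 1). The groups overlapped there, since MDA-MB-231 EV 3 lay below MCF-10A EV 1. Of 47 assembly factors 45 were tested, with medians of 0.21, 0.08 and 0.11 in the same order of comparisons, the last at -0.061 without PBS 1. Surf1, needed to build complex IV, had 41.4, 36.2 and 29.7 TPM in MDA-MB-231 EV livers, 28.1, 22.4 and 14.8 TPM in MCF-10A EV livers and 13.9, 28.1 and 20.2 TPM in PBS livers (0.80 ± 0.40 in MDA-MB-231 EV over PBS, without overlap). In that comparison 2 of the 45 factors were higher without overlap, near the 5.23% of all features. Nubpl, which inserts iron-sulphur clusters into complex I, had 5.04, 2.77 and 5.92 TPM in MDA-MB-231 EV livers, 2.01, 0.42 and 0.18 TPM in MCF-10A EV livers and 3.01, 1.89 and 0.79 TPM in PBS livers, a log2 change of 1.66 ± 0.51 in MDA-MB-231 EV over MCF-10A EV (limma, adjusted p = 0.81).

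The 14 citric acid cycle genes had medians of 0.49, 0.25 and 0.09 in MDA-MB-231 EV over PBS, MDA-MB-231 EV over MCF-10A EV and MCF-10A EV over PBS, with 13 of 14 above 0 in the first of these. The median in MCF-10A EV over PBS was -0.067 without MCF-10A EV 1. The 15 genes of mitochondrial membranes, import and chaperones had medians of 0.48, 0.18 and 0.30 in the same order, with 14 of 15 above 0 in MDA-MB-231 EV over PBS, and a median of -0.103 without PBS 1 in MCF-10A EV over PBS. In MDA-MB-231 EV over MCF-10A EV their median was -0.071 without MDA-MB-231 EV 1. Beside these stands the shift of all tested features, whose median was 0.21 in MDA-MB-231 EV over PBS. Summed hepatocyte markers were 110360.3, 77976 and 40419.8 TPM in MDA-MB-231 EV livers, 54185, 70128 and 47619.9 TPM in MCF-10A EV livers and 39798, 63057 and 98540.3 TPM in PBS livers. The part of hepatocyte content in any of these medians was not tested.

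Of the machinery that transcribes, stabilises and copies mitochondrial DNA, 26 genes were tested, with medians of 0.25 in MDA-MB-231 EV over PBS, 0.27 in MDA-MB-231 EV over MCF-10A EV, then -0.10 in MCF-10A EV over PBS, the last at 0.079 without PBS 1. Tfam, which packs mitochondrial DNA and starts its transcription, had 35.6, 9.65 and 5.09 TPM in MDA-MB-231 EV livers, 16.04, 5.67 and 4.04 TPM in MCF-10A EV livers and 3.85, 5.04 and 5.90 TPM in PBS livers. MDA-MB-231 EV 1 was highest in Tfam, while its summed mitochondrial TPM was the third lowest of the 9. Tfb2m, the transcription factor that melts the promoter, had 13.6, 7.84 and 11.4 TPM in MDA-MB-231 EV livers, 10.3, 15.5 and 15.7 TPM in MCF-10A EV livers and 6.34, 8.10 and 7.91 TPM in PBS livers (0.80 ± 0.36 in MCF-10A EV over PBS, without overlap). Twnk, the helicase of mitochondrial DNA replication, had 11.6, 14.3 and 21.99 TPM in MDA-MB-231 EV livers, 8.42, 7.0 and 8.94 TPM in MCF-10A EV livers and 12.1, 11.2 and 11.3 TPM in PBS livers (0.86 ± 0.35 in MDA-MB-231 EV over MCF-10A EV, without overlap). Tfb2m and Twnk were each the only 1 of the 26 higher without overlap in these comparisons. The shares of all features were 2.95% in MCF-10A EV over PBS and 4.73% in MDA-MB-231 EV over MCF-10A EV, near that rate. Slirp, which stabilises mitochondrial messengers, had 16.9, 26.9 and 50.8 TPM in MDA-MB-231 EV livers, 27.7, 68.9 and 68.8 TPM in MCF-10A EV livers and 60.8, 45.5 and 63.4 TPM in PBS livers (-0.95 ± 0.51 in MDA-MB-231 EV over PBS).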

How the data were processed

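Per the labels' protocols, liver RNA of 9 samples in 3 groups went into TruSeq libraries, each from 1 µg; the sources used here do not give strand handling. HISAT2, StringTie, RSEM and the mouse build GRCm39 are named in the submitters' processing notes, without versions or order. The authors deposited TPM per gene and library, scaled for transcript length and library total, and these values were used as deposited. TPM keep no read depth, so depth and its part in the precision are unknown. Precision is judged here only from the spread among libraries within groups. The 6059 loci assembled from the reads, which are at 0 in the MCF-10A EV libraries, were left out.

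A linear model of log2(TPM + 1) was fitted with limma 3.58.1 (R 4.3.3) over all 9 libraries with a mean per group, a trended prior variance and Benjamini-Hochberg adjustment over the 12860 Ensembl features with a mean of at least 1 TPM; fold changes on this scale understate those of low genes. The fit was tested on simulated data. Ratios and shares were compared with exact two-sided permutation tests (scipy 1.17.1). Copies were searched with blastn 2.17.0 among the annotated transcripts of GENCODE M21 (GRCm38) only, with at least 99% identity over at least 200 bases, and promoters were taken from RefSeq (GRCm38.p6); neither is the build of the authors, and their coordinates belong to GRCm38. Tables and figures were made with Python 3.11.15, pandas 2.3.3 and matplotlib 3.10.9.

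Members and gene lists were chosen with earlier results of these data known. Named genes are all mitochondrial members, all complex II members, members averaging under 1 TPM, the 3 most abundant nuclear genes of complexes I, III, IV and V, and the 2 with the smallest p in each comparison; a few others serve as examples of a role. Some of the 82 tested nuclear members are given only in counts and ranges. The labels give the same replicate numbers in each group without stating a shared animal, day or batch. Deviations of same-numbered libraries from their group means correlated at 0.336, 0.11 and 0.436 between MDA-MB-231 EV and MCF-10A EV, at -0.284, 0.5 and -0.389 between MDA-MB-231 EV and PBS and at -0.206, -0.09 and -0.158 between MCF-10A EV and PBS. Differently numbered libraries correlated between -0.337 and 0.116 across the EV groups, and between -0.595 and 0.625 over all pairs of groups. Pairing is thus not settled by these data. Alternatives were another pseudocount, no filter, other scalings, array weights, no trend, only the libraries compared, a replicate block and each library left out. Addition of the copies, a set without annotated copies, the block within pairs of groups, and single libraries left out of medians by complex and list and of ratios by complex were chosen after seeing the data.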

Additional observations from a re-analysis of the deposited data

How the results depend on the processing

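Members called numbered 0 in MDA-MB-231 EV over PBS, 1 in MDA-MB-231 EV over MCF-10A EV, and 1 for MCF-10A EV over PBS, and these counts held in every alternative but the addition of the copies, which left 0 in each comparison. With the replicate block the counts were again 0, 1 and 1, and the block changed no call. The median change of the mitochondrial genes stayed below 0 in both comparisons with PBS, between -1.57 and -0.65 for MDA-MB-231 EV and between -1.41 and -0.61 for MCF-10A EV with 1 library left out, the smallest sizes without PBS 1; array weights gave -0.65 and -0.21. Between the EV groups it ran from -0.42 to 0.28. The nuclear median ran from -0.25 to 0.37 in MDA-MB-231 EV over PBS, from -0.31 to 0.16 in MDA-MB-231 EV over MCF-10A EV, and from -0.19 to 0.42 for MCF-10A EV over PBS, where it was -0.19 without PBS 1 and MDA-MB-231 EV 3. The log2 ratio of both sums ran from -1.59 to -0.27, from -0.26 to 0.58 and from -1.72 to -0.40 in the same order. Between the EV groups it turned to -0.063 as a mean over members and to -0.26 without PBS 1 and MDA-MB-231 EV 3. The cause was not tested.

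Of 53 changes of named genes, none of them called, 12 turned sign somewhere, in 21 of 1111 values. In MDA-MB-231 EV over PBS mt-Co2 was -0.93 with its copy added. With 1 library left out mt-Atp6 ran from -1.39 to 0.25 there, Uqcr10 from -0.10 to 0.97, Sdhc from -0.10 to 1.35 and Sdhb from -0.016 to 0.32; Sdhb was also -0.049 without PBS 1 and MDA-MB-231 EV 3, -0.13 with array weights and -0.07 after centring on the library median. In MCF-10A EV over PBS array weights gave 0.10 for mt-Nd3, 0.15 for mt-Nd4l and -0.13 for Cox6a1. With 1 library left out Ndufc1 ran from -0.14 to 0.92, Ndufa4 from -0.30 to 1.65, Uqcrb from -0.053 to 0.68, Cox6a1 from -0.21 to 1.44 and Atp5l from -0.0225 to 1.11, each lowest without PBS 1 and the same with MDA-MB-231 EV 3 also left out. With 3 libraries per group and no read depth, a change that was not called is not shown to be absent.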

Other observations

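The mitochondrial genome also encodes ribosomal and transfer RNAs. mt-Rnr1, the RNA of the small mitochondrial ribosomal subunit, had 356, 1418 and 5550.02 TPM in MDA-MB-231 EV livers, 921, 2567 and 4607 TPM in MCF-10A EV livers and 13116, 2085 and 1640.2 TPM in PBS livers. mt-Rnr2, that of the large subunit, had 198, 801 and 3273 TPM in MDA-MB-231 EV livers, 571, 1554 and 3123 TPM in MCF-10A EV livers and 8947, 1223 and 1066 TPM in PBS livers. PBS 1 was highest in mt-Rnr1 and MDA-MB-231 EV 1 lowest. These RNAs lack the long tails of messengers, and the median log2 change of the pair was -1.41 in MDA-MB-231 EV over PBS, -0.73 in MDA-MB-231 EV over MCF-10A EV, then -0.69 in MCF-10A EV over PBS, none called. In MCF-10A EV over PBS it turned to 0.28 without PBS 1, and between the EV groups to 0.27 without MDA-MB-231 EV 1. All 22 mitochondrial transfer RNA genes were listed at 0 in every library.

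Other cell types differed between libraries as well. Summed Kupffer cell markers were 566, 652 and 484 TPM in MDA-MB-231 EV livers, 1564, 238 and 290.2 TPM in MCF-10A EV livers and 254, 522 and 255 TPM in PBS livers. Summed erythroid markers were 4150.02, 2447 and 897 TPM in MDA-MB-231 EV livers, 16022, 1682 and 1017 TPM in MCF-10A EV livers and 781, 4172 and 1029 TPM in PBS livers. MCF-10A EV 1 was highest in both sums, but Kupffer markers went different ways there. Marco had 39.6, 80.5 and 119.97 TPM in MDA-MB-231 EV livers, 804, 33.9 and 57.6 TPM in MCF-10A EV livers and 15.6, 45.8 and 24.8 TPM in PBS livers, whereas Clec4f had 156, 211 and 243 TPM in MDA-MB-231 EV livers, 0.61, 96.5 and 109.8 TPM in MCF-10A EV livers and 169.6, 199.6 and 118 TPM in PBS livers. Summed smooth muscle markers were 7.45, 6.14 and 15.4 TPM in MDA-MB-231 EV livers, 6.46, 18.9 and 5.41 TPM in MCF-10A EV livers and 23.4, 38.8 and 8.64 TPM in PBS livers. The 4 tested of these 5 markers were below 0 in both comparisons with PBS, with medians of -1.01 in MDA-MB-231 EV and -0.91 in MCF-10A EV. Among them Myh11 averaged at least 1 TPM only through PBS, so the filter favoured a change below 0. It had 5.36 and 2.46 TPM in PBS 1 and 2 and at most 1.17 TPM in any other library. All 7 sinusoidal endothelial and all 7 stellate cell markers were below 0 in MCF-10A EV over PBS (medians -0.45 and -0.32) and above 0 in MDA-MB-231 EV over MCF-10A EV (medians 0.97 and 0.77). Both comparisons share the MCF-10A EV libraries. In MDA-MB-231 EV over PBS 5 of 7 endothelial and 4 of 7 stellate markers were above 0, beside 69.74% of all features. Des stands in both the stellate and the smooth muscle list. None of these markers was called. Their part in the subunit values was not tested.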
